A study of Rattus norvegicus with 8 samples.

Results

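The 10 genes described here encode immune checkpoint receptors and ligands of the B7 family. They were chosen by name from the 32545 Ensembl genes of the table, each with 1 entry. The 5 receptors are Pdcd1, Ctla4, Lag3, Havcr2 and Tigit, and the 5 ligands are Cd274, Pdcd1lg2, Cd80, Cd86 and Cd276. Their messenger RNA was measured by RNA-seq of sciatic nerve tissue from female, outbred Sprague Dawley rats aged 3 to 6 months. In PEG-fused PNAs (PEG, 3 animals) a donor nerve segment, or peripheral nerve allograft, was joined to the cut host nerve with sutures and polyethylene glycol, which fuses opposed axonal membranes, and was taken at 14 days PO (postoperatively). Negative control PNAs (NC, 3 animals) were sutured and washed with methylene blue in the same way, received no PEG, and were also taken at 14 days PO. Unoperated sciatic nerves (Unop, 2 animals) carried no graft. Donors and hosts were not matched for tissue type and no animal was immune-suppressed. A graft holds cells of both donor and host, which these libraries do not separate.

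Immune checkpoints are receptor and ligand pairs that restrain T cells once these are activated. PD-1 (Pdcd1) on T cells binds PD-L1 (Cd274) and PD-L2 (Pdcd1lg2) on antigen-presenting and tissue cells, and CTLA-4 competes with the activating receptor CD28 for CD80 and CD86. LAG-3, TIM-3 (Havcr2) and TIGIT are further inhibitory receptors that T cells display after activation, and TIM-3 is also found on macrophages and dendritic cells. B7-H3 (Cd276) belongs to the same ligand family and is found on fibroblasts and other stromal cells as well as on immune cells. In tissue grafts they are known from infiltrating T cells and antigen-presenting cells.

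The 8 libraries held between 32472925 and 39959620 reads on genes, and values are normalized read counts, that is reads divided by a size factor of the library. The filter asked for 10 or more normalized counts in 2 or more libraries, which all 10 genes and 16478 genes in total passed. Schwann cell marker counts summed to between 2032968 and 2413217 in Unop nerves and between 23553 and 80561 in the grafts. T cell marker counts summed to between 28757 and 48611 in NC PNAs, 7997 to 12293 in PEG-fused PNAs, and 1757 to 2106 in unoperated nerve. Skeletal muscle fibre transcripts stood apart in NC 1 and NC 3, with sums of 345240 and 127767, against 6320 in NC 2 and between 1984 and 18459 in the PEG and Unop libraries. The muscle markers had a median log2 fold change of -3.87 between PEG and NC, and with this spread among NC libraries none passed the test (0 of 3). In tissue of this kind, fewer cells of a type and less RNA per cell cannot be told apart.

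For 9 of the 10 genes the order of mean levels was NC above PEG above Unop, and Cd276 alone had the order PEG above NC above Unop. Compared with NC PNAs, 8 genes were lower in PEG-fused PNAs, Cd276 was higher and Cd86 did not pass the test (limma, adjusted p under 0.05). Of all 16478 genes tested, 13.9% were lower and 15.0% higher in this comparison, 28.9% in all. The median log2 fold change was -2.58 over the 10 genes and 0.0017 over all genes tested. All 10 genes had PEG and NC libraries that did not overlap, as did 48.9% of all genes tested. Compared with Unop nerves, 9 genes were higher in PEG-fused PNAs and all 10 were higher in NC PNAs, where 29.1% and 32.2% of all genes tested were higher. The 2 neighbouring levels that did not differ beyond the test were those of Cd274 in PEG-fused PNAs and Unop nerves and those of Cd86 in PEG-fused and NC PNAs.

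**Figure D1:**
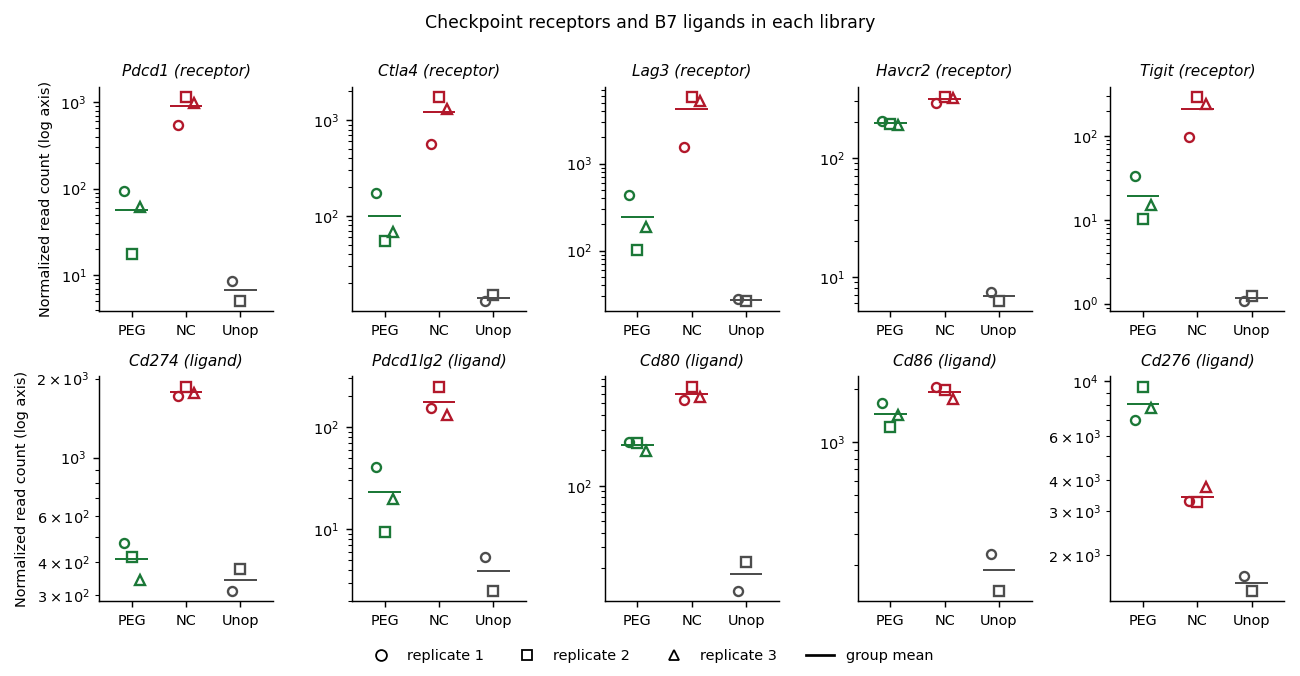
Normalized read count (log axis, scaled separately for each gene) of the 5 receptors and 5 ligands by group (PEG, NC and Unop). Circles, squares and triangles are replicates 1, 2 and 3, and bars are group means. The NC libraries lie above the PEG libraries for 9 genes, while for Cd276 the PEG libraries lie on top, between 6987 and 9515.

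Promoter sequences of RefSeq (rat build GRCr8, not the build of the counts) are shown for the ligands that moved in opposite directions and for Cd80. A window of 300 bases around the transcription start was found for 9 of the 10 genes. The windows of Cd274 (chr1:236529982-236530281, plus strand) and Cd276 (chr8:67863869-67864168, minus strand) are printed with each CpG in capitals.
Cd274: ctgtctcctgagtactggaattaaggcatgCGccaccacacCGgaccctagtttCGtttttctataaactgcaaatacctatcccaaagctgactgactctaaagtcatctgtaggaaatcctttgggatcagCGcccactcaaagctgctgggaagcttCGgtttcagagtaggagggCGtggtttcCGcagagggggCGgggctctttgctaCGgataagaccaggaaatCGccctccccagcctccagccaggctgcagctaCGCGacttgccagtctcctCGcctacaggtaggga
Cd276: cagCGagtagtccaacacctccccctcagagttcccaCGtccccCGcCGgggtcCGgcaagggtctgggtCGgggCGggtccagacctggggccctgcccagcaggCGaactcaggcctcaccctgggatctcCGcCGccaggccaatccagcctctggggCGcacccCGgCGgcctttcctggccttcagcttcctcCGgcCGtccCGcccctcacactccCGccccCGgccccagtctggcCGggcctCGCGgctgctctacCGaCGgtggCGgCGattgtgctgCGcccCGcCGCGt
The Cd276 window held 29 CpG, and its G and C share of 74.0% was above that of 96.0% of the 33469 RefSeq windows. The Cd274 window held 13 CpG and 54.7% G and C. The median window held 7 CpG and 51.7% G and C. A link between base composition and the direction of change was not tested.

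The windows were searched on both strands for the letters TTCNNNGAA (a gamma-activated site), GAAA followed after any 2 bases by GAAA (a pair of IRF sites) and TGANTCA (an AP-1 site), which 8.87%, 3.92% and 7.33% of all windows hold. TTCNNNGAA occurred in Havcr2 and Cd80, the IRF pair in Cd80 and TGANTCA in none of the 9 genes. No matches overlapped. Cd80 has a pair of RefSeq starts, with windows at chr11:75797491-75797790 and chr11:75797207-75797506 on the minus strand. They are printed with the matched letters in capitals, which are the gamma-activated site at position -73 of the first and the IRF pair, read on the other strand, at -207 of the second.
Cd80 first start: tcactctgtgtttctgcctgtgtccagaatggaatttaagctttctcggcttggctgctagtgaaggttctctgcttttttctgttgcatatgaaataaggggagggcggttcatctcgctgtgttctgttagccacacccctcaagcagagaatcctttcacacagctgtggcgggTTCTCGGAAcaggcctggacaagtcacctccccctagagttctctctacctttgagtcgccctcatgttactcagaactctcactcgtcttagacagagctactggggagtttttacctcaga
Cd80 second start: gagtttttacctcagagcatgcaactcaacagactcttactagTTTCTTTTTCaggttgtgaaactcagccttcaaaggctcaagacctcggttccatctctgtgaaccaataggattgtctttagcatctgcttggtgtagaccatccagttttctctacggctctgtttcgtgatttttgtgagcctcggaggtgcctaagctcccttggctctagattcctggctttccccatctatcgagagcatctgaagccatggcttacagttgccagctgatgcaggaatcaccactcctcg
A match of letters is a description of the sequence and no evidence of binding.

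PD-1 transcripts (Pdcd1, ENSRNOG00000019043) were more abundant in NC PNAs than in any other library. Normalized counts were 549, 1149 and 988 in NC PNAs, 92.7, 17.8 and 61.0 in PEG-fused PNAs, and 8.59 and 5.003 in Unop nerves. The 3 groups did not overlap, and PEG 2 was the lowest graft. Pdcd1 was 17.9-fold lower in PEG-fused than in NC PNAs (log2 fold change -4.16 ± 0.57 SE, limma adjusted p = 0.00191). It remained 6.30-fold above the Unop level in PEG-fused PNAs (2.65 ± 0.64, limma adjusted p = 0.00739). That last call was lost without Unop 2 (2.32, limma adjusted p = 0.0569), and without PEG 2 the differences were -3.49 against NC and 3.33 against Unop.

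CTLA-4 transcripts (Ctla4, ENSRNOG00000054129) had the same order of groups. NC PNAs held 562, 1752 and 1304 normalized counts, PEG-fused PNAs 173, 55.2 and 68.5, and Unop nerves 12.9 and 15.0. NC 1 was the lowest of the NC libraries and PEG 1 the highest of the PEG libraries, with no overlap. The difference between PEG and NC was 12.4-fold (log2 fold change -3.63 ± 0.51 SE, limma adjusted p = 0.00201), and PEG-fused PNAs stood 5.90-fold above Unop nerves (2.56 ± 0.57, limma adjusted p = 0.00486).

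LAG-3 transcripts (Lag3, ENSRNOG00000021334), whose product binds MHC class II, were measured at 1556, 5825 and 5177 normalized counts in NC PNAs. PEG-fused PNAs held 440, 101 and 186.7, and Unop nerves 27.9 and 26.3. Again NC 1 was the lowest NC library and PEG 1 the highest PEG library. Lag3 was 17.7-fold lower in PEG-fused than in NC PNAs (log2 fold change -4.15 ± 0.61 SE, limma adjusted p = 0.00233), or -4.75 without NC 1. Against Unop nerves it was 7.25-fold higher in PEG-fused PNAs (2.86 ± 0.68, limma adjusted p = 0.00689) and 129-fold higher in NC PNAs (7.01 ± 0.68, limma adjusted p = 3.90e-05). The NC value was 7.61 without NC 1.

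TIGIT transcripts (Tigit, ENSRNOG00000056574) were close to the limit of detection in unoperated nerve, with 1 read in each Unop library. Normalized counts were 97.4, 296 and 246 in NC PNAs and 33.4, 10.3 and 15.0 in PEG-fused PNAs. NC and PEG libraries did not overlap. Tigit was 10.5-fold lower in PEG-fused than in NC PNAs (log2 fold change -3.39 ± 0.53 SE, limma adjusted p = 0.00293). From summed reads, with 63 in PEG-fused PNAs and 2 in Unop nerves, the PEG level was 17.0 times the Unop level (95% interval 4.51 to 143, counting error only). The log2 fold change against Unop was 3.09 with a pseudocount of 1 and 1.5 with a pseudocount of 8, so its size depends on that setting.

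TIM-3 transcripts (Havcr2, ENSRNOG00000031443) differed little between the grafts. They were measured at 286, 324 and 315 normalized counts in NC PNAs, 205, 194 and 188 in PEG-fused PNAs, and 7.51 and 6.25 in Unop nerves. Replicates were close to each other, and the groups did not overlap. Havcr2 was 1.57-fold lower in PEG-fused than in NC PNAs (log2 fold change -0.66 ± 0.16 SE, limma adjusted p = 0.0201) and 25.0-fold higher than in Unop nerves (4.64 ± 0.18, limma adjusted p = 1.21e-06). The value against Unop rests on 7 and 5 Unop reads and was 3.77 with a pseudocount of 8. The call against NC was lost without PEG 1, PEG 2, PEG 3, NC 2 or NC 3, with adjusted p between 0.0543 and 0.0752, and not without NC 1.

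PD-L1 transcripts (Cd274, ENSRNOG00000016112), the ligand of PD-1, were the only ones of the 10 that did not pass the test between PEG-fused PNAs and unoperated nerve. Cd274 was measured at 1718, 1863 and 1763 normalized counts in NC PNAs, at 474, 420 and 341 in PEG-fused PNAs, and at 311 and 375 in Unop nerves. PEG and Unop libraries overlapped, while all NC libraries were above both. The PEG level was 4.36-fold below the NC level (log2 fold change -2.12 ± 0.14 SE, limma adjusted p = 0.000338). Its difference from Unop nerves was 0.25 ± 0.15 (limma adjusted p = 0.193), with a 95% confidence interval of -0.10 to 0.61, and the adjusted p ranged from 0.0547 to 0.631 over the alternatives.

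PD-L2 transcripts (Pdcd1lg2, ENSRNOG00000016136), the other ligand of PD-1, lie next to Cd274 in the GRCr8 annotation. They were measured at 153, 249 and 130 normalized counts in NC PNAs, 40.8, 9.35 and 19.7 in PEG-fused PNAs, and 5.37 and 2.50 in Unop nerves. The groups did not overlap. Pdcd1lg2 was 8.26-fold lower in PEG-fused than in NC PNAs (log2 fold change -3.05 ± 0.53 SE, limma adjusted p = 0.00455). The PEG level was 4.40-fold above the Unop level (2.14 ± 0.59, limma adjusted p = 0.0137), from 75 reads against 7. Without Unop 2 that call was lost (1.71, limma adjusted p = 0.0966).

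CD80 and CD86 are the B7 ligands that CD28 and CTLA-4 share. Cd80 (ENSRNOG00000001527) was measured at 534, 695 and 567 normalized counts in NC PNAs, 235, 232 and 196 in PEG-fused PNAs, and 12.9 and 22.5 in Unop nerves. Cd86 (ENSRNOG00000038835) was measured at 2074, 1990 and 1758 in NC PNAs, 1669, 1227 and 1426 in PEG-fused PNAs, and 230 and 143 in Unop nerves. Neither gene overlapped between groups, though the gap of Cd86 between PEG 1 and NC 3 was small. Cd80 was 2.70-fold lower in PEG-fused than in NC PNAs (log2 fold change -1.43 ± 0.22 SE, limma adjusted p = 0.00289). Cd86 differed by -0.44 ± 0.19 (95% confidence interval -0.86 to -0.01), which did not pass the test (limma adjusted p = 0.114). It passed when only the PEG and NC libraries were fitted (adjusted p = 0.0414), and its adjusted p ranged from 0.0414 to 0.310 over the alternatives. Against Unop nerves, PEG-fused PNAs were 12.2-fold higher for Cd80 and 7.86-fold higher for Cd86 (limma adjusted p = 9.39e-06 and 1.03e-05).

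B7-H3 transcripts (Cd276, ENSRNOG00000033608) were the only ones of the 10 that were higher in PEG-fused than in NC PNAs. These are RNA levels. For the protein, the authors reported very little staining in PEG-fused PNAs and widely differing staining among NC PNAs. PEG-fused PNAs held 6987, 9515 and 7824 normalized counts, NC PNAs 3303, 3261 and 3759, and Unop nerves 1648 and 1440. Every PEG library was above every NC library, and every NC library above both Unop libraries. Cd276 was 2.34-fold higher in PEG-fused than in NC PNAs (log2 fold change 1.23 ± 0.13 SE, limma adjusted p = 0.000695), 5.22-fold higher than in Unop nerves (2.38 ± 0.14, limma adjusted p = 4.86e-06), and in NC PNAs 2.23-fold above Unop nerves (1.16 ± 0.14, limma adjusted p = 0.000143). Fibroblast marker counts moved with it, with sums between 254497 and 374493 in PEG-fused PNAs and between 144613 and 209137 in NC PNAs. Against 15.0% of all genes tested, 3 of 5 fibroblast markers passed the test upward. Their sums in Unop nerves, 244151 and 331081, were within or near the PEG range although Cd276 was lowest there.

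**Figure D2:**
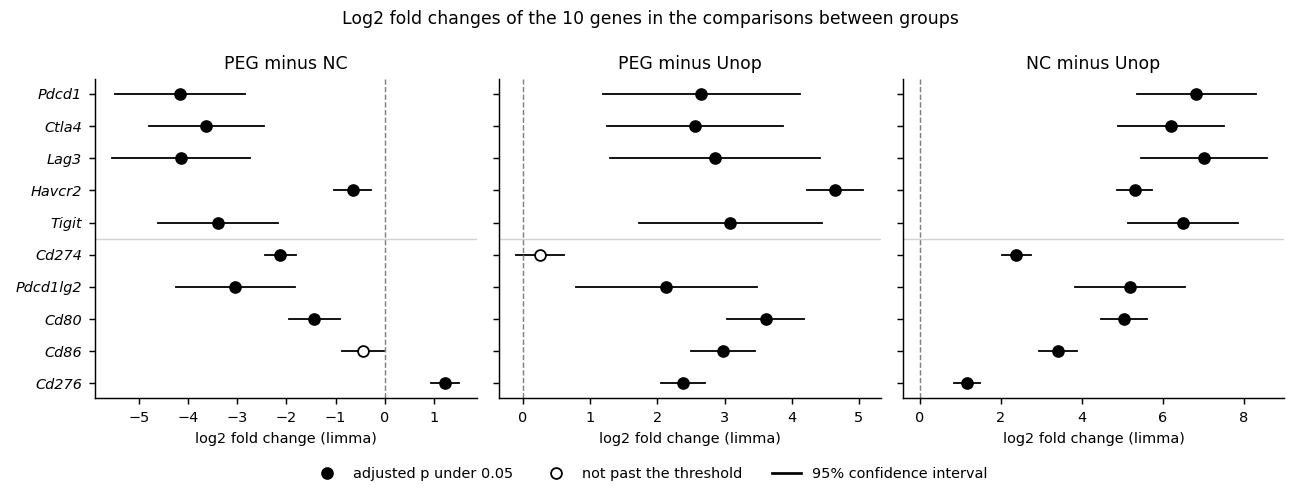
Log2 fold change (limma) of the 5 receptors and, below the grey line, the 5 ligands in PEG minus NC, PEG minus Unop and NC minus Unop. Points are estimates from 3, 3 and 2 libraries, bars 95% confidence intervals, filled points adjusted p under 0.05. Open points mark Cd86 in PEG minus NC (-0.44) and Cd274 in PEG minus Unop (0.25), and Cd276 is the only gene to the right of 0 in PEG minus NC.

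The spread between animals differed among the genes. Within PEG-fused PNAs the highest library exceeded the lowest 5.22 times for Pdcd1, 4.36 times for Lag3 and for Pdcd1lg2, 3.24 times for Tigit and 3.14 times for Ctla4. The same ratio was 1.09 for Havcr2, 1.20 for Cd80, 1.36 for Cd86 and Cd276 and 1.39 for Cd274. Among NC PNAs, NC 1 was the lowest library for each of the 5 receptors, and it also had the lowest T cell marker sum (28757, against 48611 and 38832) and the highest muscle sum. The part of muscle RNA in these values was not tested. With NC 1 and NC 3 both left out, 8 of the 10 genes were called between PEG and NC, where 20.4% of all genes tested were called. Havcr2 was not called there (log2 fold change -0.73, limma adjusted p = 0.113), nor was Cd86.

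T cell markers were lower in PEG-fused than in NC PNAs for 9 of 9, with a median log2 fold change of -3.13, where 13.9% of all genes tested were lower. The receptors other than Havcr2 had values from -4.16 to -3.39, and Havcr2 was at -0.66. To set each receptor against the T cell transcripts of the same library, its log2 count was compared with the mean log2 count of Cd3d, Cd3e and Cd3g, subunits of the T cell receptor complex. The other T cell markers were not part of this reference, so the ratios hold for these genes and not for the whole list. With 3 animals against 3, the exact two-sided permutation test cannot go below p = 0.1, and none of the 15 ratios described here passed after adjustment (lowest adjusted p = 0.214).

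Relative to these markers, Ctla4 differed between PEG and NC by -0.047 on the log2 scale (exact permutation p = 0.9), and Tigit by 0.19 (exact permutation p = 0.6). The PEG and NC libraries overlapped for both, and both signs turned when single libraries were left out. Lag3 differed by -0.56 (exact permutation p = 0.4) and also overlapped, at -0.27 without PEG 3, -0.28 without NC 3 and -0.95 without NC 1. Pdcd1 was the receptor whose ratio fell without overlap, with -2.26, -2.69 and -2.61 in PEG-fused PNAs and -2.13, -2.01 and -1.67 in NC PNAs (difference -0.58, exact permutation p = 0.1). Havcr2 went the other way, at -1.12, 0.69 and -0.9995 in PEG-fused PNAs and -3.07, -3.84 and -3.32 in NC PNAs (difference 2.93, or 7.61-fold, exact permutation p = 0.1).

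Macrophage markers were less displaced between the grafts, with a median log2 fold change of -0.62. In PEG-fused PNAs 5 of 8 were lower, against 13.9% of all genes tested. The macrophage marker sums were 61252 to 70026 for PEG, 78939 to 91642 for NC and 13417 to 17998 for Unop libraries. Against the mean log2 count of Csf1r, Cd68, Itgam, Adgre1 and Aif1, Havcr2 differed by -0.11 (exact permutation p = 0.2) and Cd86 by 0.11 (exact permutation p = 0.5). PEG and NC libraries overlapped for both genes. In Unop nerves Havcr2 was at -7.49 and -7.16, below every graft, and Cd86 at -2.73 and -2.85, within the NC range. Cd274 did not overlap between PEG and NC, at -4.20, -4.24 and -4.64 in PEG-fused PNAs and -2.66, -2.81 and -2.87 in NC PNAs (difference -1.57, or 2.98-fold lower, exact permutation p = 0.1). Its ratio in Unop nerves was -2.29 and -1.46, above every NC library, so Cd274 did not follow these markers over the 3 groups. PEG and NC libraries did not overlap for Pdcd1lg2 (-2.50) and Cd80 (-0.88) either, each with an exact permutation p of 0.1.

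Dendritic cell markers, another source of these ligands, were lower in PEG-fused PNAs for 5 of 8, with sums between 5247 and 8498 against 10204 and 16081 in NC PNAs. B cell markers were lower for 3 of 3, and 1 of 4 endothelial markers was lower, against 13.9% of all genes tested. Their part in the ligand levels was not tested. Per fibroblast marker (Pdgfra, Col1a1, Col1a2, Dcn and Lum), Cd276 was at -1.35, -1.31 and -1.20 in PEG-fused PNAs, -1.68, -1.92 and -1.91 in NC PNAs, and -3.23 and -3.04 in Unop nerves. The groups did not overlap, and the difference between PEG and NC was 0.55, or 1.46-fold (exact permutation p = 0.1).

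**Figure D3:**
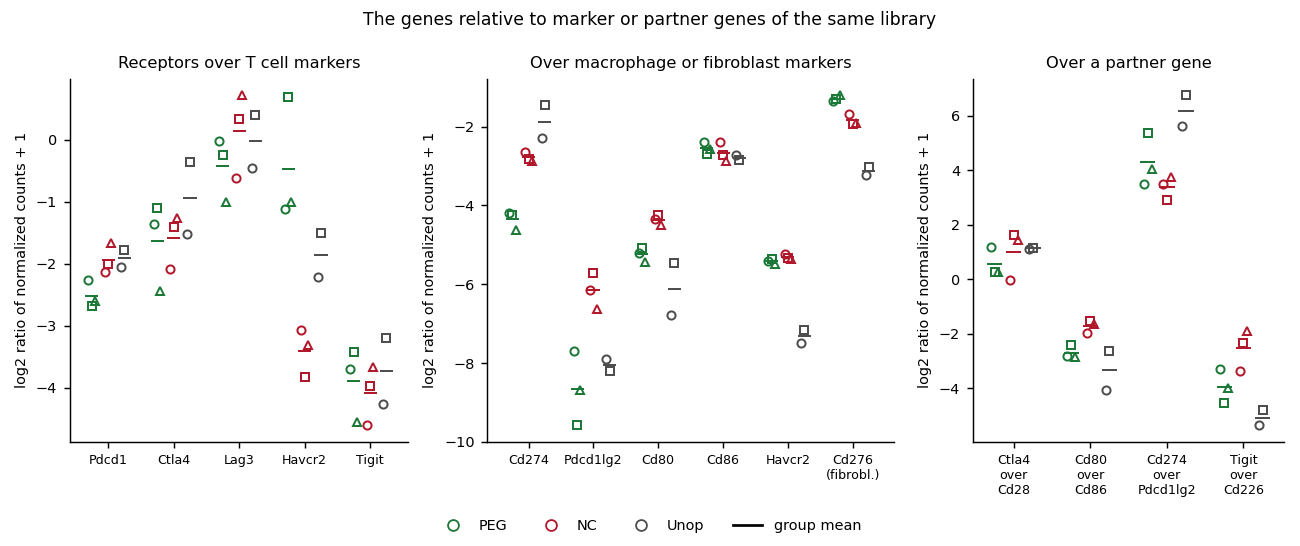
Log2 ratio of each gene to marker or partner genes of the same library (difference of log2(normalized count + 1)), by group (PEG, NC and Unop). Circles, squares and triangles are replicates 1, 2 and 3, and bars group means. PEG and NC libraries overlap for Ctla4, Lag3 and Tigit over T cell markers and for Cd86 and Havcr2 over macrophage markers, and are apart for Cd274, Pdcd1lg2 and Cd80 over macrophage markers.

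Within the receptor and ligand pairs, the ratio of Cd80 to Cd86 was lower in every PEG library (-2.83, -2.40 and -2.86 on the log2 scale) than in any NC library (-1.95, -1.52 and -1.63). The difference was -0.99 (exact permutation p = 0.1). Ctla4 over Cd28, its activating counterpart, differed by -0.44 (exact permutation p = 0.6), and Cd274 over Pdcd1lg2 by 0.92 (exact permutation p = 0.2). With 1 library left out, the first of these ranged from -0.13 (without NC 2) to -0.96 (without NC 1) and moved by over 1.5 times for each library. The second ranged from 0.40 (without PEG 2) to 1.32 (without PEG 1). Tigit over Cd226, the activating receptor that shares its ligands, differed by -1.41 (exact permutation p = 0.2). PEG and NC libraries overlapped in these last 3 ratios.

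Of 17 further partners and relatives of these genes, 8 were lower and 1 was higher in PEG-fused than in NC PNAs. Among all genes tested, 13.9% were lower and 15.0% higher. Cd28 fell from between 482 and 579 normalized counts in NC PNAs to between 45.8 and 76.0 in PEG-fused PNAs, and Unop nerves held 5.37 and 6.25 (log2 fold change -3.19 ± 0.23 SE, limma adjusted p = 0.000343). Icos, which follows Ctla4 and Cd28 on chromosome 9 in GRCr8 and encodes another costimulatory receptor, fell by 2.69 on the log2 scale. The lowest value was that of Tnfrsf14 (HVEM, a ligand of BTLA and CD160), at -4.22 ± 0.55 (limma adjusted p = 0.00155). Tnfrsf14 was measured at 7019, 15132 and 11530 in NC PNAs and at 1319, 236 and 605 in PEG-fused PNAs.

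The ligands of TIGIT and TIM-3 moved less. Nectin3, which can bind TIGIT, was the highest of the list in PEG-fused against NC PNAs (log2 fold change 0.63 ± 0.14 SE, limma adjusted p = 0.0120). Nectin2, another TIGIT ligand, was at 0.20 (limma adjusted p = 0.162). Of the TIM-3 ligands, Lgals9 (galectin-9) was at -0.77 (limma adjusted p = 0.0738), Ceacam1 at -0.24 (limma adjusted p = 0.551) and Hmgb1 at 0.17 (limma adjusted p = 0.191), none of which passed. Cd226 fell by 1.98 and Cd96, which shares TIGIT's ligands, by 3.03 on the log2 scale. The TIGIT ligand gene Pvr was not analysed here, and Fgl1, which encodes a LAG-3 ligand, did not pass the filter.

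Of 8 tested activators and stabilisers of PD-L1, 6 were lower in PEG-fused than in NC PNAs and none higher. Among all genes tested, 13.9% were lower and 15.0% higher. Interferon gamma (Ifng), the main inducer of PD-L1, was measured at 135, 192.6 and 240 normalized counts in NC PNAs and at 12.0, 1.87 and 3.75 in PEG-fused PNAs (log2 fold change -5.04 ± 0.59 SE, limma adjusted p = 0.00107). Irf1, the transcription factor through which interferon gamma acts on Cd274, was measured at 20631, 18723 and 16665 in NC PNAs and at 2941, 2015 and 2189 in PEG-fused PNAs (-2.98 ± 0.16, limma adjusted p = 0.000190). Jak2, Ifngr2, Cmtm6 and Jak1 fell by between 0.49 and 0.78 on the log2 scale. Cmtm4, a stabiliser of PD-L1 protein, had the highest value (0.53, limma adjusted p = 0.200). Against Unop nerves, Irf1 was higher in PEG-fused PNAs by 0.93 and in NC PNAs by 3.92 on the log2 scale, beside 0.25 and 2.38 for Cd274. Both comparisons share the Unop libraries.

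Transcription factors linked to inhibitory receptors were lower in PEG-fused than in NC PNAs for 10 of 12. Among all genes tested, 13.9% were lower and 15.0% higher. Tbx21 (T-bet), the factor of T helper 1 cells, had the lowest value (-3.12 ± 0.51, limma adjusted p = 0.00357) and Maf the highest (0.04, limma adjusted p = 0.820). Of the 7 genes of receptor-proximal signalling, 6 were lower and Ptpn11, which encodes the phosphatase SHP-2 recruited by PD-1, was higher (0.29 ± 0.07, limma adjusted p = 0.0186). Sh2d1a, an adaptor of T and natural killer cells, had the lowest value (-3.29). Ptpn6, which encodes the related phosphatase SHP-1, fell by 1.25 on the log2 scale.

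**Figure D4:**
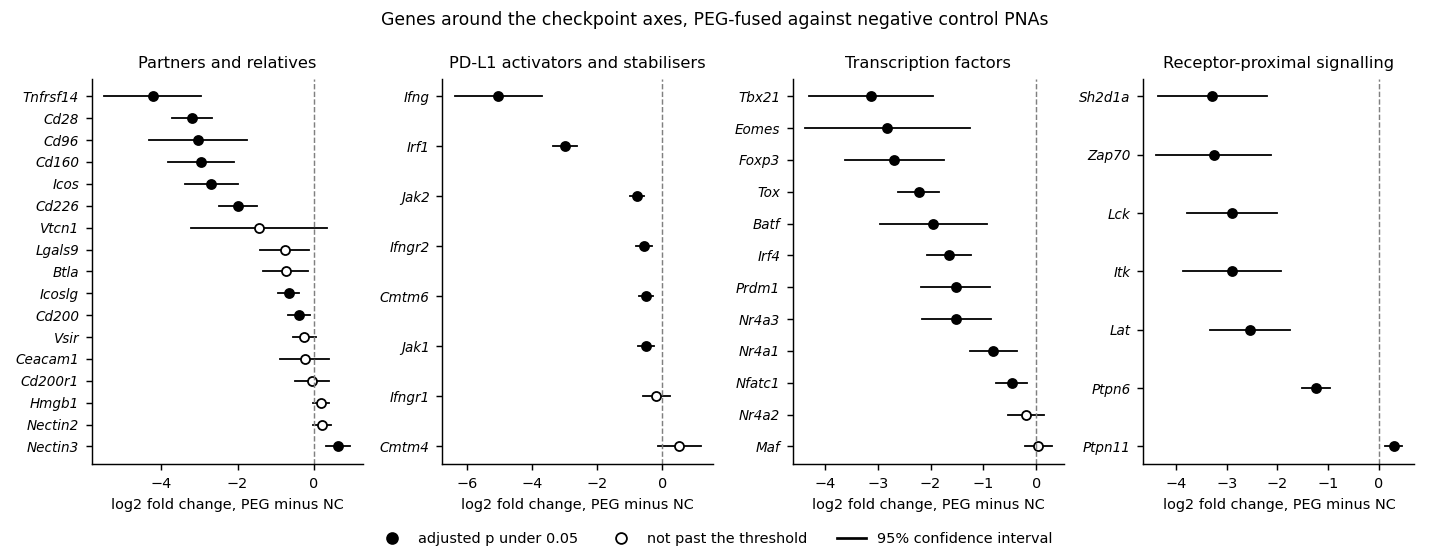
Log2 fold change (limma) in PEG-fused minus NC PNAs of 17 partners and relatives, 8 activators and stabilisers of PD-L1, 12 transcription factors and 7 receptor-proximal signalling genes, 3 libraries a group. Bars are 95% confidence intervals and filled points adjusted p under 0.05. Only Nectin3 (0.63) and Ptpn11 (0.29) have filled points to the right of 0, and Ifng (-5.04) lies farthest to the left.

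The genes whose patterns over the 8 libraries were most like those of the 10 were found by distance. Likeness was the root mean square difference of centred log2 counts, given as a description. Nearest to Pdcd1 was Cd3d (0.34), nearest to Lag3 was Pdcd1 (0.37), and Ctla4 and Tigit were nearest to each other (0.22), followed among named genes by Nkg7 of cytotoxic lymphocytes (0.36 and 0.28). Havcr2 was instead nearest to AABR07006310.1 (0.12) and then to Ncf1 (0.18), which encodes a subunit of the phagocyte oxidase, and Lilrb4 (0.19), an inhibitory receptor of myeloid cells. For Cd86 the nearest were Fcer1g (0.11), Lrrc25 (0.14) and Ctss (0.14), where Fcer1g encodes the common Fc receptor gamma chain and Ctss cathepsin S. For Cd80 they were RGD1307182 (0.14), Il10ra (0.24) and AABR07029272.1 (0.26).

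For Cd274 the nearest genes were Dtnb (0.22), Tnfaip3 (0.23), an inhibitor of NF-kB signalling, and Vcam1 (0.26), an adhesion molecule of activated endothelium. By the way they were chosen, these genes share with Cd274 a high level in NC PNAs. Mean normalized counts in NC, PEG and Unop libraries were 5693, 1374 and 1454 for Vcam1. For Dtnb they were 1072, 321 and 237, and for Tnfaip3 1356, 354 and 247. Near to Pdcd1lg2 were Tnfsf14 (0.29), which encodes the ligand LIGHT, and Tbc1d10c (0.30). Cd276 was nearest to Adamts12 (0.09), a secreted protease, Rhou (0.11) and Tead2 (0.14), a transcription factor of the Hippo pathway. Mean normalized counts of Adamts12 were 4152 for PEG, 1802 for NC and 887 for Unop libraries.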

How the data were processed

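RNA-seq libraries, 1 per animal, came from 3 PEG, 3 NC and 2 Unop nerve segments, from poly-A RNA with integrity numbers between 7.1 and 8.2. The deposited signal is a normalized read count. To make it, the authors used TopHat2 for alignment (Rnor 6.0), HTSeq for counts per gene and DESeq2 for the size factors, here between 0.800 and 1.12, that divide the counts. Whether counting used strand is not given in the sources used here. The reads and size factors given here were recovered from the deposited values. For each library a constant was found that turns its values into whole reads. Divided by that constant, every value was within 0.001 of a whole number (100% of values). The authors' own fold changes and p-values were also deposited and were not used.

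Tests were limma 3.58.1 (trend) on log2(normalized count + 1) in 1 fit of the 8 libraries, with Benjamini-Hochberg adjustment over 16478 genes, in R 4.3.3. This scale understates changes of genes with low counts. The fit was tested on simulated data. Ratios within libraries were compared by exact two-sided permutation tests (SciPy 1.17.1). Intervals of summed reads cover counting error only.

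The 10 genes, the lists of partners and markers and the tests were chosen with earlier results of these data known. Named genes are the 10, the lowest and highest of each list, direct partners, and the 3 genes nearest in pattern, and other list genes named with values were chosen after these were seen. A gene that the rule names is not reported here. Alternatives were edgeR 4.0.16 (TMM), DESeq2 1.42.0, TMM rescaling, no filter, a pseudocount of 8, only the groups compared, a replicate block, single markers and each library left out. Leaving out NC 1 and NC 3 together was added after the data were seen. Transcript lengths were not used, so levels were not compared between genes.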

Additional observations from a re-analysis of the deposited data

How the results depend on the processing

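Between PEG and NC, from 8 to 10 of the 10 genes were called over all alternatives, against 9 in the report. Of all genes tested, between 16.8% (without PEG 2) and 33.6% (DESeq2) were called in these alternatives. Leaving out 1 library at a time gave 8 to 9. Between PEG and Unop 7 to 9 were called, 7 without Unop 2, and between NC and Unop always 10. Where 1 Unop library was left out, the other was assumed to vary like the other groups. The same was assumed of NC 2 where NC 1 and NC 3 were left out. With both Unop libraries kept, between 43% and 60.1% of all genes tested were called between PEG and Unop. Between NC and Unop the share was 48.5% to 64.6%. Among values of single genes, 381 kept direction and call over the alternatives, 8 lost the call and 1 gained it, and none reversed. Ratios of Ctla4 and Tigit to T cell markers changed sign. The Ctla4 ratio was -0.047, 0.021 with a pseudocount of 8, and between -0.31 and 0.35 with 1 library left out. The Tigit ratio was 0.19 and ranged from -0.075 to 0.52 with 1 library left out. The cause was not tested. The number of all genes called between PEG and NC was 4763, but 2749 without PEG 2 and 3132 without PEG 3. A pseudocount of 8 lowered the log2 fold changes of genes with few Unop reads. That of Tigit in NC against Unop went from 6.48 to 4.46, and DESeq2 raised it to 7.53. With a replicate block, 9, 9 and 10 genes were called in PEG against NC, PEG against Unop and NC against Unop. The shares of all genes tested were 25.3%, 54% and 60.7% there. Whether equal numbers mark paired animals is not known. Deviations of PEG and NC libraries of the same number correlated at r = 0.11, 0.11 and -0.050. Libraries of unlike number correlated at between -0.16 and 0.098. With 3 libraries a group, these values cannot decide it. Unop nerves held 2 reads of Tigit, 7 of Pdcd1lg2, 12 of Pdcd1 and 12 of Havcr2 in all, which limits the precision of their folds.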

Other observations

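Several transcription factors linked to inhibitory receptors had another order of groups than the receptors themselves. Tox, a factor of exhausted T cells that other cells also express, had mean normalized counts, each ± SD, of 799 ± 61.0 in the 2 Unop libraries, 597 ± 96.9 in the 3 NC libraries and 126 ± 19.4 in the 3 PEG libraries. The log2 fold change of PEG against Unop was -2.66 (called lower), and the difference between NC and Unop was -0.43 and did not pass the test. Nr4a1 and Nr4a2, nuclear receptors induced by T cell receptor signals and by other stimuli, were lower than in Unop nerves in both grafts (log2 fold changes of -2.37 and -1.82 in PEG-fused and -1.55 and -1.64 in NC PNAs). Tbx21, Eomes, Foxp3, Batf, Prdm1, Irf4 and Nr4a3 were higher than in Unop nerves in both grafts, as the 5 receptors were. Both comparisons share the 2 Unop libraries.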
